A study of Mus musculus with 3 samples.

Results

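The growth and repair factors described here are secreted or shed ligands that act on tissue cells: Vegfa, Tgfb1, Pdgfa, Pdgfb, Hbegf, Areg, Ereg, Igf1 and Inhba. They were chosen by gene symbol, and all 9 symbols were found among the 55536 annotated genes. Their RNA was measured in macrophages that C57BL/6J mouse bone marrow cells had been differentiated into, a primary culture and not a cell line. Every culture had received Lipid A, the Toll-like receptor 4 ligand of lipopolysaccharide, at 100 ng/ml for 12 h. It was then washed and left for 12 h, and given Lipid A at 100 ng/ml again for 90 min. Total RNA from the cytosol, with ribosomal RNA depleted, was sequenced in 3 libraries that form 1 group. Age and sex of the mice were not collected. The 3 biosamples are numbered as biological replicates 1 to 3 but share 1 donor record, so spreads and p-values measure variation between these samples only. No culture without Lipid A was analysed here, so the values are levels under this regime and not responses to it. In such bulk RNA, fewer cells of a type and less RNA per cell cannot be told apart.

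Macrophages in a healing tissue are known sources of such ligands. VEGF-A drives growth of blood vessels, TGF-beta1 drives matrix production and restrains inflammation, PDGF chains recruit fibroblasts and pericytes, and IGF-1 supports survival and growth of muscle and epithelium. HB-EGF, amphiregulin and epiregulin are membrane-anchored ligands of the EGF receptor family that ADAM proteases release, and Inhba encodes the chain of activin A, a TGF-beta family ligand. Several of these ligands are made in forms that differ by an exon rich in basic codons, and such stretches are known to hold a ligand on heparan sulphate at the cell surface or in the matrix.

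The exons on which the forms of Vegfa, Pdgfa and Igf1 turn are printed below from the mm10 genome with GENCODE M21 exon bounds, 5′ to 3′ on the strand of the gene. Capitals mark codons for lysine or arginine, including bases of a codon shared with a neighbouring exon. The Vegfa exon of 72 nt lies at chr17:46022277-46022348 and the Vegfa exon of 132 nt at chr17:46020991-46021122, both on the minus strand. The coding part of the alternative Pdgfa exon of 69 nt lies at chr5:138978638-138978690 on the minus strand. The Igf1 exon of 52 nt lies at chr10:87915298-87915349 on the plus strand.
Vegfa 72-nt exon: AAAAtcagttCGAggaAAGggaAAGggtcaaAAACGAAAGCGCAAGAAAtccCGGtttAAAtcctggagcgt
Vegfa 132-nt exon: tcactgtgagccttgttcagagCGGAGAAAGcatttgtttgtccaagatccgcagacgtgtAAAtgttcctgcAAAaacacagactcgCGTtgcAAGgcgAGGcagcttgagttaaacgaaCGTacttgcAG
Pdgfa 69-nt exon, coding part: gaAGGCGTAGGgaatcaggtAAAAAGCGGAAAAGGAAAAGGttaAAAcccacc
Igf1 52-nt exon: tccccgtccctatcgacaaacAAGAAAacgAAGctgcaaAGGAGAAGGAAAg
Basic codons made up 12 of the 23 whole codons of the 72-nt Vegfa exon (52.2%), against 16.3% over the coding sequence of Vegfa-207, the transcript it was read from. In the Pdgfa exon they were 11 of 17 (64.7%, against 19.4% over Pdgfa-201), and in the Igf1 exon 7 of 17 (41.2%, against 16.1% over Igf1-206). The 132-nt Vegfa exon was less rich, with 9 of 43 (20.9%, against 13.9% over Vegfa-202). The Igf1 exon is the only 1 of the 4 whose length is not a multiple of 3, so including it changes the reading frame downstream. In Pdgfa-201 the coding sequence ends inside the 69-nt exon, so the length of that exon does not bear on a downstream frame.

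Levels are given as TPM, a transcript abundance corrected for length and library size that can be compared between genes. Tgfb1, which encodes the latent cytokine TGF-beta1, was the highest of the factors (ENSMUSG00000002603.15, chr7:25687002-25705077, plus strand). It stood at 111.29, 114.89 and 106.29 TPM in replicates 1, 2 and 3, a mean of 110.8 ± 4.32 TPM (SD, n = 3). These values lay close together, and the mean ranked Tgfb1 446th among protein-coding genes.

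Igf1, which encodes insulin-like growth factor 1, was next (ENSMUSG00000020053.18, chr10:87858265-87937042, plus strand). Its levels were 58.09, 60.96 and 42.59 TPM, a mean of 53.9 ± 9.88 TPM (SD, n = 3). Replicate 3 was the low library, and the gene ranked 903rd among protein-coding genes. Vegfa (ENSMUSG00000023951.17, chr17:46016993-46032369, minus strand) stood at 14.01, 13.94 and 11.94 TPM, a mean of 13.3 ± 1.18 TPM (SD, n = 3). Its 3 libraries were close, at rank 3239 among protein-coding genes.

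The PDGF chains sat near 1 TPM. Pdgfa, the A chain, stood at 1.41, 1.25 and 0.75 TPM (mean 1.14 ± 0.344 TPM, SD, n = 3; ENSMUSG00000025856.15, chr5:138976014-138997370, minus strand). Pdgfb, the B chain, stood at 1.21, 1.02 and 1.03 TPM (mean 1.09 ± 0.107 TPM, SD, n = 3; ENSMUSG00000000489.7, chr15:79995874-80014977, minus strand). Replicate 3 was low for Pdgfa and not for Pdgfb. The antisense gene 6330403L08Rik overlaps Pdgfa and held 47.55, 198 and 113.12 expected counts against 131.45, 213 and 96.88 for Pdgfa. The sources used here do not say if counting used strand, so reads of this pair may not be separable.

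Inhba, the activin A chain, was the factor that varied most relative to its level among those above 1 TPM in the mean (ENSMUSG00000041324.14, chr13:16011851-16031621, plus strand). It stood at 1.69, 1.27 and 0.30 TPM, a mean of 1.09 ± 0.713 TPM (SD, n = 3). Replicate 3 was well below the other two.

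The 3 EGF family ligands were the lowest factors. Hbegf, which encodes HB-EGF, stood at 0.39, 0.60 and 0.25 TPM, from 52, 153 and 48 expected counts (ENSMUSG00000024486.6, chr18:36504927-36515805, minus strand). Exact Poisson 95% intervals on those counts were 38.8 to 68.2, 129.7 to 179.3 and 35.4 to 63.6 before any correction for depth. Replicate 2, the deepest library, was highest in both counts and TPM. Areg, which encodes amphiregulin, stood at 0.07, 0.11 and 0.01 TPM from 4, 13 and 1 counts (ENSMUSG00000029378.5, chr5:91139599-91148432, plus strand). Ereg, which encodes epiregulin, had 0, 1 and 0 counts (ENSMUSG00000029377.5, chr5:91074622-91093646, plus strand), and 3 counts, the limit that a count of 0 allows, would be at most 0.0123 TPM. Areg and Ereg were thus at or near the limit of detection in libraries of 40637857 to 70407572 counts. These intervals and limits cover counting error only.

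Detection was set at 1 TPM and had to be met by every library. Tgfb1, Igf1, Vegfa and Pdgfb met this rule, 4 of the 9 factors, against 16.7% of all annotated genes and 40.1% of protein-coding genes. The share of factors was thus near that of protein-coding genes. Pdgfa and Inhba passed 1 TPM in replicates 1 and 2 only. The median over the 9 factors was 1.09 TPM, against 0 over all annotated genes and 0.13 over protein-coding genes.

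**Figure D1:**
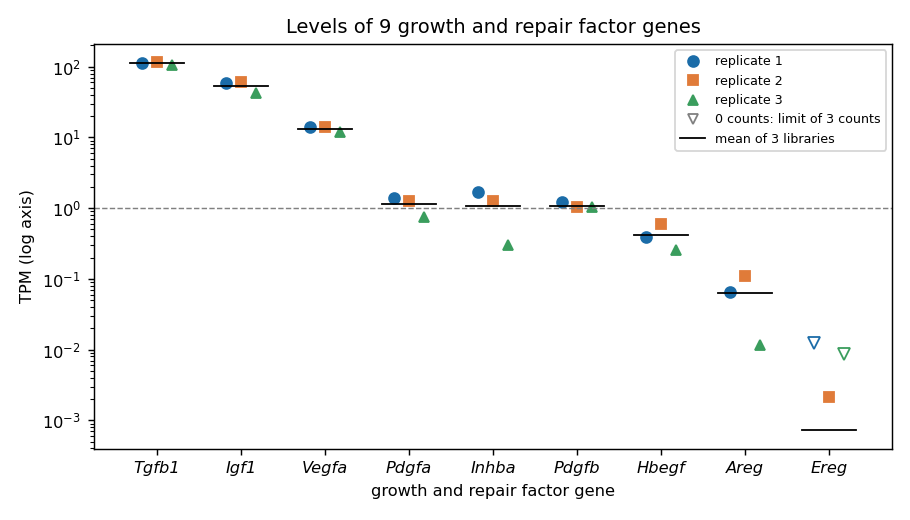
TPM of each growth and repair factor gene on a log axis, with 1 point per library, the mean of 3 libraries as a bar and the 1 TPM threshold as a dashed line. Open triangles stand at the limit of 3 counts where a library had 0 counts. Tgfb1, Igf1 and Vegfa lie above 10 TPM in every library, and replicate 3 of Inhba lies apart at 0.30 TPM.

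Neighbours in the order of the mean levels were separated at the top and the bottom but not in the middle. Tgfb1 was 2.06-fold above Igf1, Igf1 4.05-fold above Vegfa, and Vegfa 11.7-fold above Pdgfa, by ratios of means, and none of these neighbours overlapped between libraries. Pdgfa, Inhba and Pdgfb did not differ beyond their spread: Pdgfa was 1.04-fold above Inhba and Inhba 1.00-fold above Pdgfb, with overlapping ranges. Pdgfb was 2.62-fold above Hbegf and Hbegf 6.61-fold above Areg, and these ranges did not overlap. Inhba, which is not a neighbour of Hbegf in this order, did overlap it. It stood at 0.303 TPM in replicate 3, below Hbegf at 0.599 TPM in replicate 2. Levels of 1 group have no contrast to test, so this order is a description.

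The forms of Vegfa were read from shares of TPM among its protein-coding transcripts in the first of 2 transcript tables. Transcripts with the 132-nt exon alone, led by Vegfa-202, held 65.4, 66.8 and 66.9% in replicates 1, 2 and 3 (mean 66.3 ± 0.820%, SD, n = 3). Transcripts with neither exon, led by Vegfa-201, held 28.1, 28.5 and 24.7% (27.1 ± 2.10%, SD, n = 3). The form with the 132-nt exon alone was thus the major one in every library. As background, the form with neither exon is the freely diffusing one, and the 132-nt exon adds binding to heparin and to neuropilins.

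Transcripts with both exons, led by Vegfa-207, encode the long form that is known to be held on the cell surface and matrix. They held 6.52, 4.52 and 6.08% in the first table (5.71 ± 1.05%, SD, n = 3) and 23.9, 16.6 and 16.7% in the second, which was made directly from the FASTQ files (19.1 ± 4.17%, SD, n = 3). The tables therefore disagreed on the long form by more than the spread between libraries. The order of the other 2 forms was the same in both, at 61.6 ± 5.86% and 19.3 ± 1.94% (SD, n = 3) in the second table. Vegfa-207 rested on 98.88, 128.29 and 105.87 expected counts, with posterior SDs from the counting program of 26.45, 27.1 and 21.87 counts.

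Pdgfa was split about evenly by its basic exon. Pdgfa-201, the only protein-coding transcript with the 69-nt exon, held 45.0, 59.2 and 53.3% of TPM in replicates 1, 2 and 3 (52.5 ± 7.14%, SD, n = 3). The remainder was mostly Pdgfa-202 (35.4 ± 7.06%) and Pdgfa-204 (11.3 ± 1.15%). The share with the exon was 53.8 ± 7.33% in the second table and 46.8 ± 7.56% by expected counts, and each of these values lay within 1 SD of the others. The known role of this exon is retention of PDGF-A near the cell that makes it. Replicate 2 was the high library for the form with the exon on all these measures.

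The shares of the Igf1 forms depended on the unit. Transcripts with the 52-nt exon, known in rodents as the Eb form of the precursor, held 53.3, 55.5 and 54.3% of TPM (54.4 ± 1.12%, SD, n = 3) in the first table and 50.3 ± 2.27% in the second. By expected counts, with no correction for length, they held 20.9, 19.8 and 14.7% (18.5 ± 3.35%, SD, n = 3). The transcripts differ widely in annotated length, 7052 nt for Igf1-202, 1673 nt for Igf1-203, 798 nt for Igf1-205 and 651 nt for Igf1-206. Igf1-202 took 5568.23, 11555.7 and 7622.17 counts and 13.06, 14.28 and 12.61 TPM. Igf1-206 took 450.65, 1128.4 and 630.85 counts and 17.66, 22.23 and 17.15 TPM. The short transcript thus ranked above the long one per length and far below it in counts.

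The same held for the start of the Igf1 message. Igf1 transcripts begin at 1 of 2 leader exons, known as class 1 and class 2, which encode 63 and 15 nt of the signal peptide region. Class 1 transcripts held 44.6 ± 1.02% of TPM in the first table, 37.7 ± 2.11% in the second and 87.4 ± 1.11% of expected counts (SD, n = 3). Libraries were close to each other within each measure, and the measures differed by more than that spread.

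The other factors had 1 dominant transcript. Tgfb1-201 held 99.0, 98.9 and 99.1% of TPM, Pdgfb-201 held 95.9, 97.1 and 94.2%, and Hbegf-201 held 100% in each library. Inhba-201 held 75.1, 80.5 and 90.3%, and the remainder was Inhba-202, a shorter transcript with a coding sequence of the same 1272 nt. Inhba-202 rested on 33.8, 38.1 and 2.95 counts, so its share in replicate 3 rests on few reads. The second table gave Inhba-202 37.2, 37.1 and 28.2%.

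**Figure D2:**
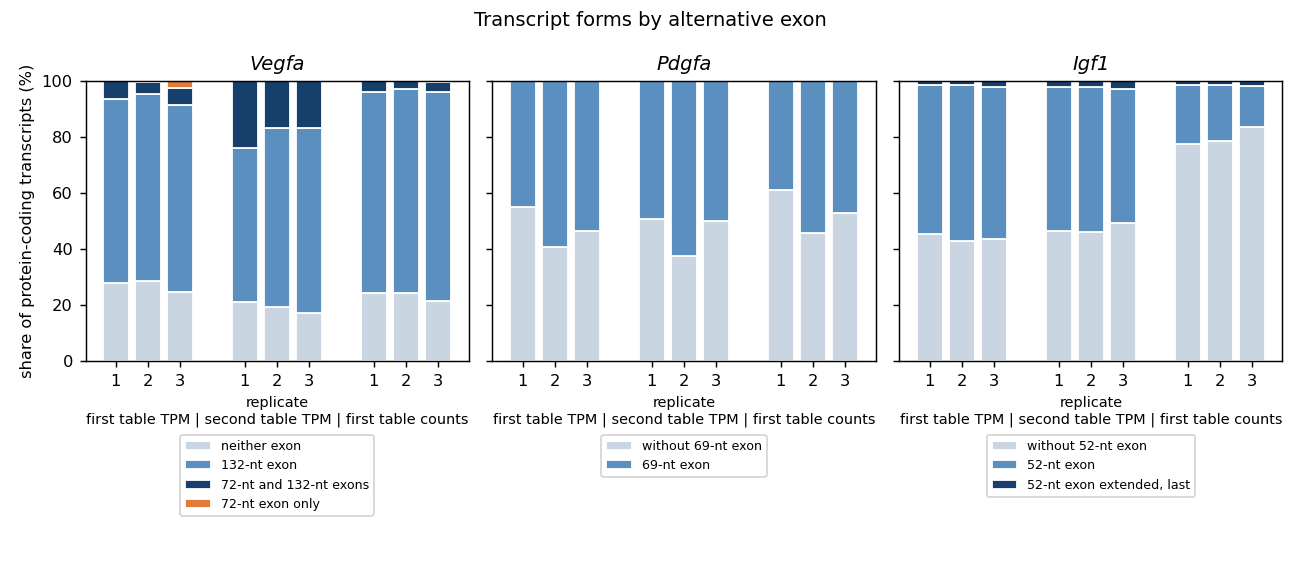
Stacked shares of the protein-coding transcripts of Vegfa, Pdgfa and Igf1 by alternative exon (%), for replicates 1 to 3 under TPM of the first transcript table, TPM of the second and expected counts of the first. The 132-nt form leads for Vegfa in every bar, Pdgfa is near an even split, and the Igf1 share with the 52-nt exon drops from 54.4% to 18.5% when counts replace TPM.

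Many growth factor and cytokine messages carry AU-rich elements in the 3′ UTR, which are known to bind proteins that set message decay. The nonamer TTATTTATT was searched on the transcript strand of the longest annotated 3′ UTR of each factor, and it can overlap itself and the pentamer ATTTA that it holds. The first site of each factor that had one is printed from GENCODE M21 transcripts, with the nonamer in capitals.
Vegfa site: ttgttatcatTTATTTATTggtgctactgt
Areg site: tatttaagtgTTATTTATTttatagctcat
Ereg site: ttgtcagtttTTATTTATTttttgttagga
Inhba site: cttatatttaTTATTTATTggaatcaatct
Inhba held 3 nonamers in a 3′ UTR of 4492 nt, and 19.3% of 3′ UTRs within 20% of that length held at least 1. Vegfa held 1 in 1865 nt (10.3% of like length), Areg 1 in 253 nt (1.64%) and Ereg 1 in 3501 nt (15.2%). None was found in those of Tgfb1, Pdgfa, Pdgfb, Hbegf and Igf1, which says only that these letters are not in these windows. Over all 21039 annotated 3′ UTRs, 7.66% held the nonamer. The factors with a site ranged from Vegfa at 13.3 TPM to Ereg at 1 count in all. Tgfb1 and Igf1, the highest factors, had none, in 135 nt (1.18% of like length) and 6308 nt (24.4%). Igf1 still held 18 ATTTA pentamers, against a median of 11 at like length. Tgfb1 held 1 (median 0), and Hbegf, Pdgfb and Pdgfa held 4, 3 and 0 (median 2 for each). Whether such sites relate to level was not tested.

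Differences between the 3 libraries were tested with edgeR on rounded expected counts, asking which genes varied more than genes of like abundance. Of the 9 factors, 7 had enough counts to be tested, and 1 of them, Inhba, passed an adjusted p of 0.05, against 1.96% of the 12256 genes tested. Inhba stood at 13.5, 10.9 and 3.05 CPM (counts scaled to library size by TMM) in replicates 1, 2 and 3. Replicate 3 was the low library, with a range of 2.14 on the log2 scale between the highest and lowest library (edgeR, Benjamini-Hochberg adjusted p = 3.55e-06). Without replicate 3 the adjusted p was 0.9997 in the same edgeR test, so the call rests on that library. A low replicate 3 was the most frequent pattern among all genes called. Of those 240 genes, 135 were lowest in replicate 3, 61 in replicate 2 and 44 in replicate 1. Inhba was also lowest in replicate 3 on the deposited TPM, on TPM rescaled over nuclear protein-coding genes (5.10, 4.30 and 1.07) and in the second transcript table (1.03, 0.943 and 0.203 TPM).

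The 6 other factors tested did not pass in edgeR, each with an adjusted p of 0.99997. Hbegf spanned 1.15 on the log2 scale, with 1.34, 2.11 and 0.951 CPM and an unadjusted p of 0.103 in edgeR. Pdgfa spanned 0.81, with 3.38, 2.94 and 1.92 CPM. Tgfb1, Vegfa, Pdgfb and Igf1 spanned 0.08 to 0.21 on that scale, Pdgfb at 1.09 TPM among them. Areg and Ereg had too few counts for this test.

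**Figure D3:**
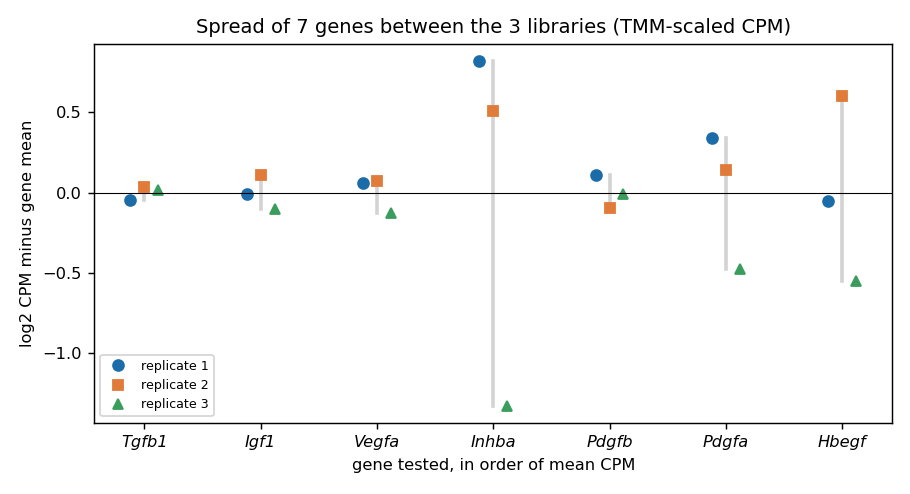
Log2 of TMM-scaled CPM minus the mean of the gene, for the 7 growth and repair factor genes tested between libraries, with 1 point per library and a grey line over their range. Inhba spans 2.14 on this scale with replicate 3 at the bottom, while Tgfb1 spans 0.08.

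Replicate 3 differed from the others in more than Inhba, and the cause was not tested. The nuclear 7SK RNA Rn7sk stood at 21185.9, 37904.2 and 76327.4 TPM in replicates 1, 2 and 3 and the nuclear RNA Malat1 at 103.2, 132.5 and 344.9 TPM. The cytokine Tnf was highest in replicate 1 and lowest in replicate 3, as Inhba was, at 1109.1, 729.0 and 606.7 TPM. Ifnb1 stood at 26.5, 5.81 and 4.54 TPM. Tnf and Ifnb1 are in none of the gene lists used here, and genes falling in that order were not counted. The macrophage marker Adgre1 rose instead, at 538.7, 652.2 and 764.0 TPM. Of the 10 macrophage markers counted below, Cd68 (735.22, 641.34 and 549.09 TPM) and Spi1 (118.96, 108.05 and 102.23 TPM) fell from replicate 1 to 3. The other macrophage markers neither rose nor fell steadily. The part of these library differences in the Inhba result was not tested. Of the 7 factors tested, 6 were lowest in replicate 3 on deposited TPM, against 50.1% of the genes tested. On rescaled TPM 4 were lowest there, against 25.1%, and on TMM-scaled CPM 5, against 31.7%. By the second transcript table all 7 were lowest there, against 54.8%. The median gene differed between replicates 3 and 1 by -0.12 on the log2 scale of deposited TPM and by 0.12 on rescaled TPM. Igf1 was lowest in replicate 3 on all 4 scales, at 175.2, 206.3 and 152.3 on rescaled TPM and 200.6, 217.6 and 187.8 on TMM-scaled CPM. Vegfa was lowest there on deposited TPM, on TMM-scaled CPM and in the second transcript table, but on rescaled TPM it stood at 42.3, 47.2 and 42.7, lowest in replicate 1.

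Ratios within a library compared each factor with a relative or an antagonist. Vegfa exceeded Vegfb, a VEGF that signals through FLT1, by 0.59, 0.22 and 0.30 on the log2 scale of TPM (0.37 ± 0.20, SD, n = 3). It exceeded Pgf, placenta growth factor, by 7.20, 5.78 and 7.67 (6.88 ± 0.99, SD, n = 3), with replicate 2 the low library. Both directions held in 3 of 3 libraries. The exact two-sided sign-flip test cannot go below p = 0.25 with 3 libraries, so no test is given.

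The 2 PDGF chains, which pair into PDGF-AA, AB and BB dimers, were at like mean levels with no fixed order between libraries. Reads of Pdgfa may not be separable from those of its antisense gene, which bears on this ratio. The log2 ratio of Pdgfb to Pdgfa was -0.22, -0.29 and 0.45, a mean of -0.02 ± 0.41 (SD, n = 3), with a different sign in replicate 3. Inhba exceeded Fstl3, a secreted binder of activin, by 3.83, 4.03 and 1.52 (3.13 ± 1.39, SD, n = 3). Fst, which encodes the activin antagonist follistatin, had 0 counts in all 3 libraries, and 3 counts would be at most 0.0326 TPM. Tgfb1 exceeded Inhba by 6.04, 6.50 and 8.46 on the log2 scale (6.998 ± 1.28, SD, n = 3), with replicate 3 highest. Without replicate 3 the mean log2 ratios were 3.93 for Inhba to Fstl3 and 6.27 for Tgfb1 to Inhba.

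Where a relative had 3 or fewer counts in a library, reads were pooled over the 3 libraries. The ratio of TPM is given with an exact 95% counting interval, which leaves out the spread between libraries. Tgfb1 stood 5562-fold above Tgfb3 (3474 to 9549, 57892 against 17 counts). Igf1 stood 2720-fold above Igf2 (1590 to 5108, 33032 against 13 counts). Inhba stood 221-fold above Inhbb, the activin B chain (94.6 to 682, 1465 against 5 counts). Without replicate 2 the Tgfb1 ratio was 10306, and without replicate 3 the Inhba ratio was 343. In each of these families 1 ligand gene held nearly all of the reads of the pair. Hbegf stood 6.44-fold above Areg (3.99 to 11.0, 253 against 18 counts), and Areg 71.3-fold above Ereg with a wide interval (11.3 to 2972.5, 18 against 1 count). That last ratio was 27.6 in the second transcript table. By library, the log2 ratio of Tgfb1 to Tgfb3 was 12.8, 11.8 and 13.9 in replicates 1, 2 and 3. It was 8.73, 8.25 and 5.75 for Inhba to Inhbb and 2.57, 2.44 and 4.46 for Hbegf to Areg. For each of these pairs replicate 3 lay outside the pooled interval.

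The other ligands of the same families were mostly absent. Of 20 family relatives, 2 were detected, against 40.1% of protein-coding genes, and the list median was 0.005 TPM. They were Vegfb at 9.29, 12.01 and 9.71 TPM and Pdgfc at 4.92, 3.41 and 2.82 TPM. Pdgfc, a PDGF chain that is activated by proteolysis outside the cell, was thus above both Pdgfa and Pdgfb in every library. Next came Nrg4 at 0.223 ± 0.0635 TPM and Pgf at 0.137 ± 0.100 TPM (SD, n = 3). Tgfa, Vegfd and Pdgfd had 0 counts in all 3 libraries.

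Receptors for these ligands were uneven. Of 22 receptors and coreceptors, 11 were detected, near the 40.1% of protein-coding genes, with a list median of 0.918 TPM. The neuropilins led, coreceptors for VEGF: Nrp2 stood at 118.94, 105.39 and 104.78 TPM and Nrp1 at 46.66, 48.95 and 48.75 TPM. Tgfbr2, the type 2 receptor for TGF-beta, stood at 25.2 ± 1.11 TPM, and the TGF-beta coreceptor Eng at 16.8 ± 4.67 TPM (SD, n = 3). Tgfbr1, its type 1 partner, stood at 12.3 ± 2.60 TPM, so both chains of the TGF-beta receptor were detected beside their ligand. Kdr, the main signalling receptor for VEGF-A, was lower and spread widely, at 8.64, 3.73 and 2.43 TPM in replicates 1, 2 and 3.

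For the PDGF, EGF family and IGF ligands the signalling receptors were low or at 0. Pdgfra had 0, 1 and 0 counts, and Pdgfrb stood at 0.03, 0.05 and 0.06 TPM. Erbb2 and Erbb4 had 0 counts in all 3 libraries, where 3 counts would be at most 0.0158 and 0.00928 TPM, and Egfr had 1, 3 and 7 counts. Erbb3, the highest receptor of that family, stood at 0.55, 0.45 and 0.52 TPM. Igf1r, the receptor for IGF-1, stood at 0.25, 0.38 and 0.27 TPM, against 53.9 TPM for its ligand. Insr, the insulin receptor, was higher at 4.20 ± 0.116 TPM, and Igf2r, which clears IGF-2, stood at 11.7 ± 1.67 TPM (SD, n = 3).

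Of 18 genes that process or activate these ligands, 9 were detected, near the 40.1% of protein-coding genes, with a list median of 1.07 TPM. The matrix metalloproteinase Mmp14 stood at 114.09, 95.28 and 84.87 TPM, and Thbs1, whose product thrombospondin 1 activates latent TGF-beta, at 111.52, 67.38 and 87.82 TPM. Nrros, which anchors latent TGF-beta1 on myeloid cells, stood at 89.01, 83.36 and 79.77 TPM. Its counterpart on other cells, Lrrc32, was at 0.0267 ± 0.0208 TPM (SD, n = 3). Adam17, a sheddase of HB-EGF and amphiregulin, stood at 40.23, 38.05 and 33.19 TPM, far above Hbegf and Areg. Furin, which cleaves the TGF-beta precursor, stood at 23.1 ± 5.05 TPM (SD, n = 3). The convertases Pcsk5 and Pcsk6 and the latent TGF-beta binding protein gene Ltbp4 had 0 counts.

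Of 24 binding proteins and inhibitors, 6 were detected, against 40.1% of protein-coding genes, with a list median of 0.127 TPM. The highest were Skil at 42.9 ± 7.495 TPM and Ski at 8.13 ± 0.277 TPM (SD, n = 3), which encode repressors of SMAD signalling. Errfi1, an inhibitor of EGF receptor kinases, stood at 6.66, 11.52 and 4.06 TPM, and the ubiquitin ligase gene Smurf1 at 6.49 ± 0.535 TPM (SD, n = 3). Igfbp4 was the only detected gene of the 7 Igfbp genes in the list, at 4.05, 9.62 and 5.66 TPM, while Igfbp1, Igfbp2, Igfbp3 and Igfbp5 had 0 counts. Smad7, the inhibitory SMAD that TGF-beta is known to induce, stood at 0.28, 0.23 and 0.23 TPM.

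Of 15 signal transducers and transcription factors, 12 were detected, against 40.1% of protein-coding genes, with a list median of 3.97 TPM. The adaptor Grb2 stood at 149.9 ± 7.05 TPM, Hif1a, the hypoxia factor known to drive Vegfa, at 14.3 ± 1.43 TPM, and Smad2 and Shc1 at 11.8 ± 1.05 and 11.4 ± 1.33 TPM (SD, n = 3). Irs1, Epas1 and Egln3 were not detected. These 5 lists are read as counts only, and no list was tested against other genes.

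**Figure D4:**
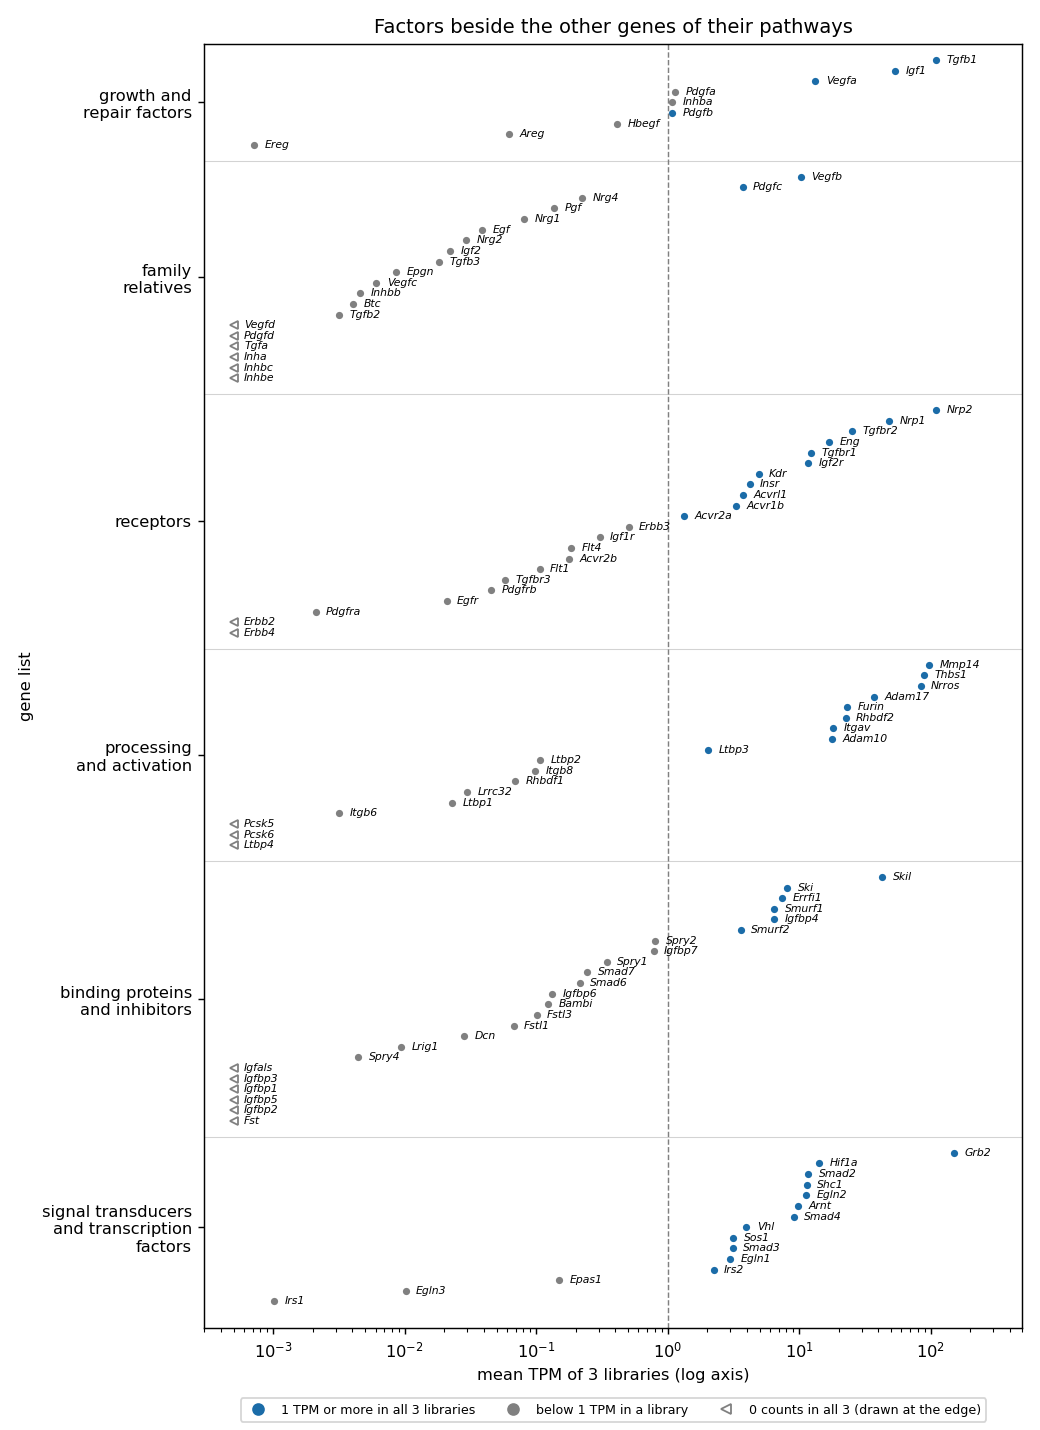
Mean TPM over 3 libraries on a log axis for the growth and repair factors and 5 lists of pathway genes, with 1 row and 1 point per gene. Blue points were at 1 TPM or more in all 3 libraries, grey points were below it in at least 1, and open triangles had 0 counts. Tgfb1, Igf1 and Vegfa lie right of 10 TPM, while 2 of 20 family relatives are blue.

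The cultures carried the markers of their label. All 10 macrophage markers were detected, with summed levels of 5053 to 5914 TPM. Of 8 stromal and fibroblast markers none was detected (summed 0.09 to 0.22 TPM), with Pdgfra and Cxcl12 at or near 0 in every library, although fibroblasts are another known source of Igf1 and Tgfb1. Of 7 endothelial markers, Kdr and Vwf were detected (summed 13.06, 8.04 and 5.32 TPM), and Tek, Emcn and Esam were at or near 0. Of 7 megakaryocyte and platelet markers, Pf4 alone was detected (summed 111.3, 90.1 and 71.2 TPM), and Gp9 was at or near 0. The endothelial and platelet sums were highest in replicate 1 and lowest in replicate 3, as Inhba was, and rested mostly on Kdr and Pf4. Cdh5 fell in the same order, but Pecam1 was highest in replicate 3 and Vwf, Ppbp and Itga2b in replicate 2. Ppbp held 6, 15 and 8 counts in replicates 1, 2 and 3 and Itga2b 5, 11 and 9, too few to give an order. The part of the endothelial and platelet markers in the Inhba result was not tested. Of 8 neutrophil markers, S100a8 and S100a9 were detected (summed 8.40 to 13.6 TPM) and Ly6g and Retnlg had 0 counts. No marker was detected of 6 for mast cells and basophils (summed 0.03 to 0.30 TPM), 6 for dendritic cells (0.30 to 0.42 TPM) or 8 for lymphocytes (1.01 to 1.30 TPM).

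The protein-coding genes nearest to each factor were found among 8838 detected ones, by Euclidean distance of log2(TPM + 1) over the 3 libraries, which mostly matches genes of the same level. For Tgfb1 they were M6pr, Ptp4a2 and Morf4l1 (distances 0.026, 0.037 and 0.098). For Igf1 they were Ubl3, Slc39a1 and Eif3c (0.123 to 0.139) and for Vegfa Fbxo11, Atxn7l3b and Ube2j1 (0.011 to 0.040). For Pdgfb they were Tbc1d8b, Ptrhd1 and Zbtb40 (0.017 to 0.060) and for Pdgfa Coq4, Dgkq and Maged1 (0.216 to 0.225). For Inhba they were Maged1, Plscr4 and Hrh2 (0.627 to 0.661). Candidates had to reach 1 TPM in every library, and Inhba stood at 0.30 TPM in replicate 3. A close match to Inhba was therefore not possible under this rule. Pdgfa, at 0.75 TPM in replicate 3, was also below that threshold, which raised its distances too.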

How the data were processed

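Total RNA-seq of 3 cytosolic macrophage libraries (40637857, 70407572 and 49678390 expected counts over annotated genes in replicates 1, 2 and 3) was analysed from the deposited tables. Values were made on mm10 with GENCODE M21, per the deposited README notes. No source used here names the programs, whose columns have the names that RSEM and kallisto write. Per the file headers, the deposited expected counts and, in the second transcript table, estimated counts are unnormalized. The TPM were computed by the authors with effective lengths, and the deposited percent column is the share of a transcript in its gene. The posterior SD of a count is also as the authors deposited it.

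Ratios and limits used TPM recomputed from counts and effective lengths, since deposited TPM have 2 decimals. Variability was tested with edgeR 4.0.16 (R 4.3.3): rounded expected counts, TMM, filterByExpr, trended dispersion, an intercept-only fit, residual deviance against chi-square on 2 degrees of freedom, and Benjamini-Hochberg adjustment over 12256 genes. The test was tested on simulated data. Rescaled TPM sum over nuclear protein-coding genes only. Named genes were all factors, the 4 highest and up to 3 lowest of each pathway list, genes of each pair, protein-coding transcripts holding at least 10% of a factor, and the 3 nearest genes. Tgfbr1, Kdr, Erbb3, Igf1r, Insr, Igf2r, Egfr, Pdgfrb, Lrrc32, Adam17, Furin, Igfbp4 and Smad7 are named where they fall outside that rule, and were chosen after their values were seen. Rn7sk, Malat1, Tnf and Ifnb1 also fall outside that rule. Overlapping antisense genes were counted as deposited. The factors and lists were chosen with earlier results of these data known. In all, 32 alternatives were listed at the start and 3 were added after seeing the data.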

Additional observations from a re-analysis of the deposited data

How the results depend on the processing

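The number of factors called variable in edgeR was 0 to 1 when each library was left out in turn, 0 without replicate 3, and the number of all genes called was 82 to 119, against 240 with all 3 libraries. The edgeR adjusted p of Inhba was 2.93e-06 to 7.49e-05 under the other alternatives. Detected factors numbered 3 to 6 over all alternatives, with 3 at 5 TPM and in the second transcript table and 6 on rescaled TPM and without replicate 3. At 5 TPM the detected genes fell to 1 family relative, 6 receptors, 3 binding proteins and inhibitors, and 7 transducers. With a pseudocount of 1 TPM the log2 ratios of Vegfa to Pgf and of Inhba to Fstl3 became 3.65 and 0.86, and the ratios became 109.6 for Tgfb1 to Tgfb3, 1.33 for Hbegf to Areg, 1.06 for Areg to Ereg, 53.6 for Igf1 to Igf2 and 2.08 for Inhba to Inhbb. With expected counts and no length correction the log2 ratios were 1.90 for Vegfa to Vegfb, 7.97 for Vegfa to Pgf, 0.85 for Pdgfb to Pdgfa, 5.01 for Inhba to Fstl3 and 5.54 for Tgfb1 to Inhba, and the ratios were 3405 for Tgfb1 to Tgfb3, 14.1 for Hbegf to Areg and 18 for Areg to Ereg. Leaving out each library in turn gave 4327 to 10306 for Tgfb1 to Tgfb3 and 167.5 to 343 for Inhba to Inhbb.

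The share of Vegfa with neither exon was 19.3% in the second transcript table and 23.5% by counts, that with the 132-nt exon alone 61.6 and 73.1%, and that with both 19.1 and 3.40%. For Igf1, the 52-nt exon share was 50.3 and 18.5%, and the class 1 leader share 37.7 and 87.4%. By counts, both Igf1 shares thus moved across an even split. No ratio past its spread or counting interval changed direction, while the log2 ratio of Pdgfb to Pdgfa was -0.25 to 0.11 when each library was left out. Mean TPM in the second table was 7.60 for Vegfa, 60.8 for Tgfb1, 36.1 for Igf1, 0.692 for Pdgfa and 0.596 for Pdgfb, and on rescaled TPM 44.0, 368, 177.9, 3.72 and 3.60. Areg to Ereg gave no value without replicate 2, where Ereg had 0 counts. No paired analysis was possible because the libraries form 1 group. Depth limits Areg, Ereg and the relatives of 17 or fewer counts.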

Other observations

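Some annotated transcripts of the factors encode no protein. The retained-intron transcript Pdgfb-202 held 4.13, 2.94 and 5.83% of Pdgfb TPM in replicates 1, 2 and 3, from 5.62, 7.45 and 10.18 expected counts. The retained-intron transcript Vegfa-209 held 0, 1.00 and 3.18% of Vegfa TPM, from 0, 3.95 and 7.68 counts. Both were highest in replicate 3, the library with the highest Rn7sk and Malat1, on few reads, and whether these move together was not tested. The retained-intron transcripts Vegfa-205, Vegfa-210, Tgfb1-203 and Tgfb1-204 also had their highest share there. Vegfa-206 and Vegfa-208 had it in replicate 2. Tgfb1-202, annotated for nonsense-mediated decay, held 0.64, 0.64 and 0.19% of Tgfb1 TPM, lowest in replicate 3.

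Other genes overlap the factors on the opposite strand at low levels. Igf1os, antisense to Igf1, had 6, 16 and 13 counts against 7781, 15766 and 9485 for Igf1. B230303A05Rik, a transcribed pseudogene antisense to Inhba, had 8, 9 and 0 counts against 523, 788 and 154 for Inhba, and Gm48444, also antisense to Inhba, had 1, 0 and 0. The antisense gene of Ereg, Gm19610, and that of Pdgfb, Gm41361, had 0 counts in all 3 libraries.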
